A study of Homo sapiens with 4 samples.

Results

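Skipped-exon events that were listed for MDA-LM2 cells and not for parental MDA-MB-231 cells, or the reverse, were described here where at least 20 reads could be assigned to them. MDA-LM2 (LM2) is a highly lung-metastatic derivative of MDA-MB-231, an established human breast cancer cell line that serves as its parental reference. The labels name no treatment and no genetic change in either line, and they do not say whether LM2 is 1 clone. RNA sequencing was done on 2 samples per line, and the deposited splicing data are 1 table per line that names no replicate. Of 44447 events listed for at least 1 line, 211 met both conditions, 47 of them listed for LM2 only and 164 listed for parental cells only. These were 0.158% of the 29817 LM2 events and 0.515% of the 31856 parental events with at least 20 assigned reads. The rule used the deposited tables of both lines, so the events were chosen by the measured reads and by presence in a table. Their number and their reads are a description and carry no test.

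A skipped-exon event consists of an exon and its 2 neighbours, and its mRNA either includes the middle exon or joins the neighbours directly. A read that covers the middle exon or its junctions fits the inclusion form, and a read across the joined neighbours fits the exclusion form. A read inside a neighbouring exon fits both forms, so by itself it measures the host gene and does not tell the forms apart. The assigned reads of an event are the sum of these 3 classes, and the informative reads are inclusion plus exclusion reads. The inclusion level is the estimated fraction of mRNA that holds the middle exon, as MISO reports it. Reads that fit both forms also count in it. The 83-nt EPB41L3 exon had 46 reads in LM2, all fitting both forms, and a level of 0.08 (deposited interval 0.01 to 0.23). For an event that is absent from a table, no reads and no level are reported, and its reads there are unknown. An event listed for one line only is therefore not an exon shown to be absent in the other line.

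The 9 exons below are printed to show what kind of sequence these events concern, taken from GENCODE release 29 transcripts on hg38. The skipped exon is in capitals and the 20 bases of each neighbouring exon are in lower case, 5′ to 3′ on the mRNA strand. The exons of 4 LM2-only events lie at chr18:5407701-5407736 (minus strand) in EPB41L3, chr3:78693348-78693356 (minus) in ROBO1, chr17:74740768-74740878 (plus) in RAB37 and chr7:51187914-51187958 (minus) in COBL. All 4 are coding, and their lengths of 36, 9, 111 and 45 nt are divisible by 3.
EPB41L3: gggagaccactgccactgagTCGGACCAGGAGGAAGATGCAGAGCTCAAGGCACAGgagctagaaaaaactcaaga
ROBO1: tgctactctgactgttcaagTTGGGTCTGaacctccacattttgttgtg
RAB37: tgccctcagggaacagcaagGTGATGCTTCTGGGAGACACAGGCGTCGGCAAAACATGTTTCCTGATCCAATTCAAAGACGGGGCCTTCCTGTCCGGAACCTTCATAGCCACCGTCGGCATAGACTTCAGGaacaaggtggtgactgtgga
COBL: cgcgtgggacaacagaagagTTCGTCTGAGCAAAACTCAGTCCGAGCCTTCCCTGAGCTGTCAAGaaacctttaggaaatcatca

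The exons of 5 parental-only events lie at chr1:163073456-163073622 (plus) in RGS4, chr4:40436441-40436647 (minus) in RBM47, chr10:45444116-45444286 (plus) in ALOX5, chr6:32935536-32935652 (minus) in HLA-DMB and chr10:60053677-60053727 (minus) in ANK3. All 5 are coding, and of their lengths of 167, 207, 171, 117 and 51 nt only the RGS4 length is not divisible by 3.
RGS4: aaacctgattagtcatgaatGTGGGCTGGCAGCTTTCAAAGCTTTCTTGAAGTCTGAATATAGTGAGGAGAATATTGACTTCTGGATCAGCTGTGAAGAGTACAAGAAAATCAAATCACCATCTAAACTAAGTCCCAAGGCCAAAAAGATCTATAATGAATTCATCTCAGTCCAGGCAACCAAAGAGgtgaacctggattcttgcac
RBM47: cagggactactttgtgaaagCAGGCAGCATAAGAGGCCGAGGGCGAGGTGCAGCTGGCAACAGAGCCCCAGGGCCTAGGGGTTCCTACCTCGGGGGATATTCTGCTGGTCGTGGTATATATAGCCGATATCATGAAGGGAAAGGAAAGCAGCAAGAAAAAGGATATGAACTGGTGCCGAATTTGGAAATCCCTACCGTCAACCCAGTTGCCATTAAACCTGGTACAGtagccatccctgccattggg
ALOX5: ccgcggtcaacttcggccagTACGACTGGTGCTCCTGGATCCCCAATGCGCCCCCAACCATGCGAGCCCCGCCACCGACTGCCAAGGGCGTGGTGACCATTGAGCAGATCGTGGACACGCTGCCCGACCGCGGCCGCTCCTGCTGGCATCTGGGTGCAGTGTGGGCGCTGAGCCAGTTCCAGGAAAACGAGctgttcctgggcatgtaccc
HLA-DMB: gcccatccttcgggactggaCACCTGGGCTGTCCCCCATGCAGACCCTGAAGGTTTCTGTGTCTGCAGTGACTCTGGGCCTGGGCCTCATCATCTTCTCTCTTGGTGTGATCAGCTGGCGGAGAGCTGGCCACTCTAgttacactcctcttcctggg
ANK3: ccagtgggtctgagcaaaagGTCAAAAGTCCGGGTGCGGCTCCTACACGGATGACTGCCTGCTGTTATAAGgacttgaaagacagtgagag

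Reads at listed events in all 4 classes summed to 68691146 in LM2 and 89285093 in parental cells, of which 17366605 and 21716937 were assigned. A read can be counted at several events, so these sums are not library sizes. The smallest listed event held 20 reads over the 4 classes, and none had fewer than 1 assigned read. Among markers of these mesenchymal-like cells, the best covered CD44 event had 38259 assigned reads in LM2 and 54542 in parental cells, and that of AXL had 2883 and 3916. Of the luminal and epithelial genes, ESRP2 had 401 and 289 reads, GATA3 13 and 57, CDH1 11 and 13, ESRP1 3 and 8, ESR1 and PGR 1 and 2 each, and EPCAM had no event. VIM, CAV1 and MSN had no listed event in either line. Defining genes of blood, liver and lung cells were at or near 0, with 5 reads in LM2 and 3 in parental cells for PTPRC and no event for SFTPC.

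Most events listed for one line only had very few reads. Without a read minimum, 821 LM2 events (2.05%) were not listed for parental cells, and 4466 parental events (10.2%) were not listed for LM2. Exactly 1 read was assigned at 419 of these LM2 events and at 1663 of these parental events. The share fell as reads rose: it was 22.4% at 1 read, 0.742% at 10 to 19 reads and 0.0318% at 100 reads or more in LM2. In parental cells it was 70.3%, 9.31% and 0.0699% in the same classes. Parental events were more often absent from the other table in each of the 7 read classes, and the LM2 table holds fewer reads. The part of that difference in reads was not tested.

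**Figure D1:**
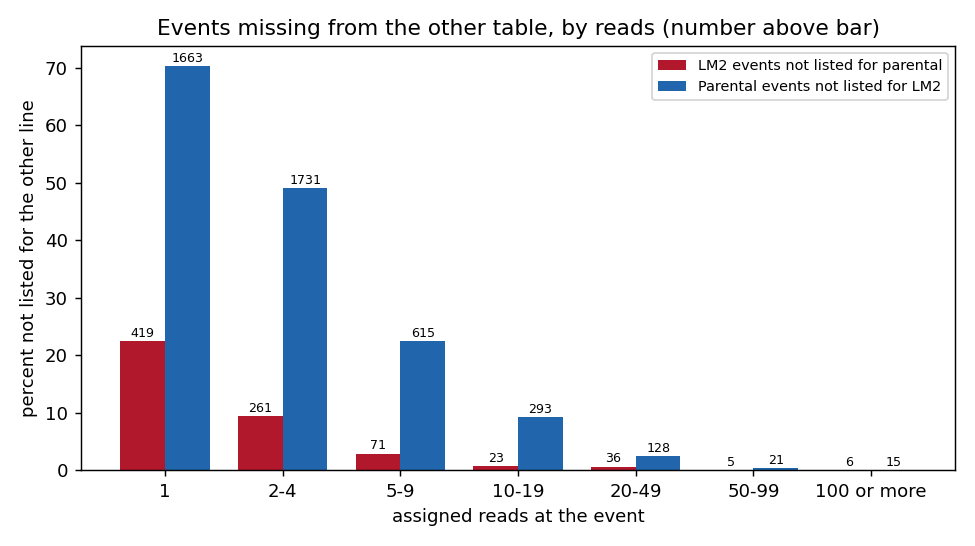
Percent of listed events that are not listed for the other line (y axis) by the number of assigned reads (x axis), for LM2 and parental events, with the number of such events above each bar. At 100 reads or more, 6 LM2 events and 15 parental events are listed for one line only.

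Just outside the read minimum, at 19 assigned reads, lay 3 LM2 events in CRIP2, HR and SYK, with inclusion levels of 0.84 to 0.88. Also at 19 reads lay 5 parental events in GABRE, GRM4, LINC00494 and PSG11, with levels of 0.23 to 0.86. Just inside, the least covered LM2 event had 22 reads, and 12 parental events had exactly 20 reads and levels of 0.1 to 0.89.

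The 47 LM2 events comprise 44 skipped exons in 27 host genes, 25 of them protein coding. The 164 parental events comprise 146 exons in 102 host genes, 84 of them protein coding. No gene hosted events of both kinds. Single genes contributed several events that share reads: 13 LM2 host genes and 33 parental host genes had at least 2. Assigned reads ranged over 22, 37 and 1275 (lowest, median and highest) in LM2, and over 20, 29.5 and 828 in parental cells. Most events of both sets had fewer than 50 reads, with 36 of 47 in LM2 and 128 of 164 in parental cells, and EPB41L3 and RGS4 were the best covered.

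**Figure D2:**
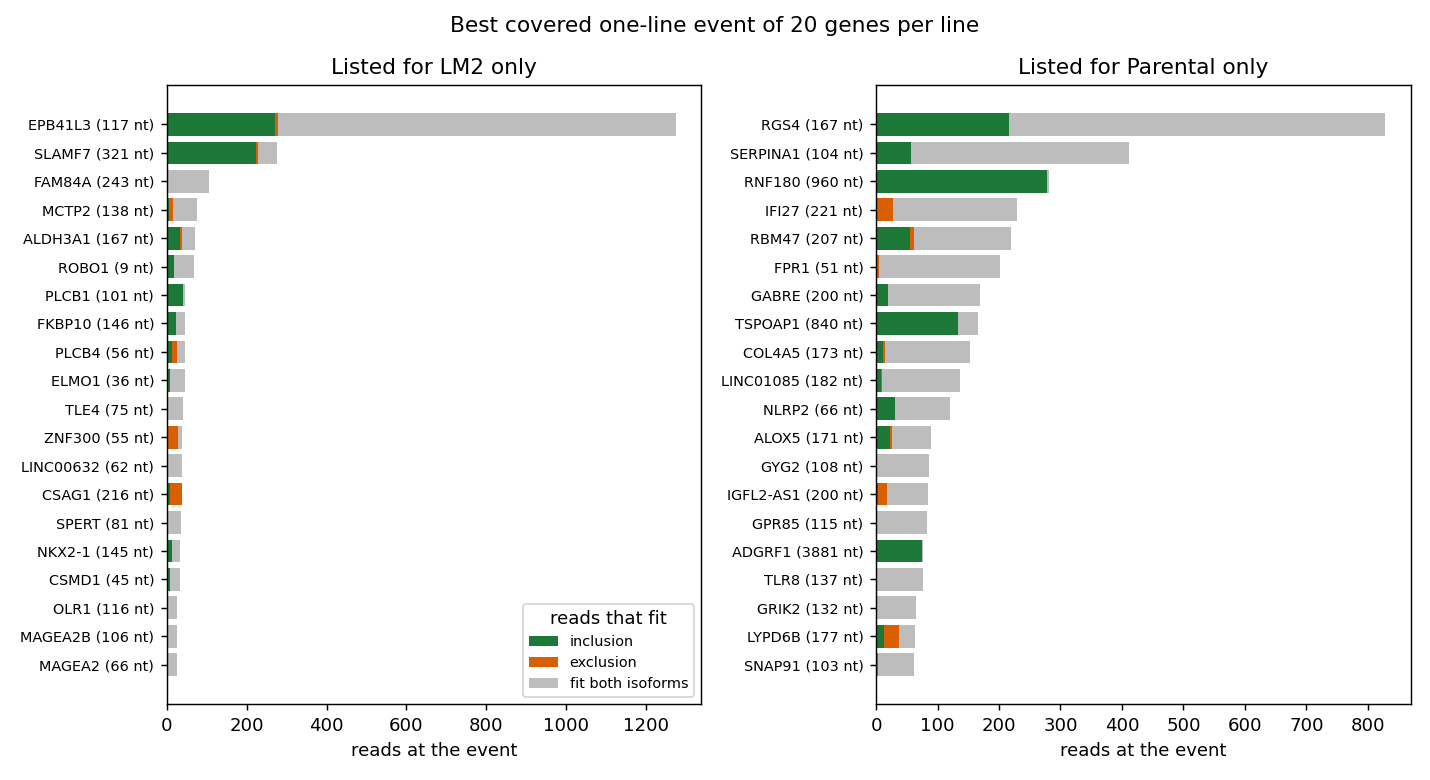
Reads at the best covered one-line event (x axis) of 20 of the best covered genes per line, LM2 left and parental right, split into reads that fit inclusion, exclusion or both forms. EPB41L3 reaches 1275 reads and RGS4 reaches 828, and most bars consist mainly of reads that fit both forms.

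In LM2, the best covered hosts were EPB41L3 and SLAMF7, which act at the cell surface. EPB41L3, a scaffold protein that links membrane proteins to the actin skeleton, had 5 of its 12 LM2 events listed for LM2 only. Its part-coding 117-nt exon at chr18:5394677-5394793 had 270 inclusion, 9 exclusion and 996 shared reads, 1275 in all (exact Poisson 95% interval 1206 to 1347, counting error only), and a level of 0.94 (deposited interval 0.9 to 0.97). Its 36-nt exon, printed above, had 1 inclusion and 67 exclusion reads and a level of 0.01 (0 to 0.04). In LM2 the first of these exons was mostly included and the other mostly skipped. Parental cells listed 7 other EPB41L3 events, which had between 1 and 11 assigned reads. At the best covered event listed for both lines, EPB41L3 had 1284 reads in LM2 and 2 in parental cells, a scaled ratio of 802 (95% interval 222 to 6631). This ratio rests on 2 parental reads and holds for that event only. At the shared 3023-nt exon there were 698 reads in LM2 and 11 in parental cells, a smaller difference in the same direction.

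SLAMF7, a surface receptor of the SLAM family best known from immune cells, had 3 LM2-only events. The 321-nt coding exon at chr1:160748194-160748514 had 224 inclusion, 4 exclusion and 49 shared reads and a level of 0.96 (0.92 to 0.98). A 273-nt coding exon was listed with different neighbours, with 227 and 218 reads. The first event had 87 inclusion and 0 exclusion reads and a level of 0.81 (0.64 to 0.95). The second had 85 inclusion reads and 1 exclusion read and a level of 0.7 (0.54 to 0.86). The 6 SLAMF7 events in the parental table had 1 or 2 assigned reads each. ROBO1, a receptor for SLIT guidance cues, had 19 inclusion reads, 0 exclusion reads and 48 shared reads at its 9-nt microexon in LM2, with a level of 0.94 (0.8 to 1). The other listed ROBO1 event had 78 reads in LM2 and 3 in parental cells. OLR1, a scavenger receptor for oxidised LDL, had 26 reads in LM2, all of which fit both forms, and a level of 0.28 with a wide interval (0.01 to 0.8). CSMD1, a large membrane protein, had 33 reads and a level of 0.59 (0.31 to 0.89).

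Several LM2 hosts encode signalling and transport proteins, grouped here by hand. PLCB1 and PLCB4, phospholipases that act downstream of G-protein-coupled receptors, are neighbours on chromosome 20. The 101-nt coding exon of PLCB1 at chr20:8657184-8657284 had 40 inclusion, 0 exclusion and 6 shared reads in LM2 and a level of 0.96 (0.88 to 0.99). The 56-nt 5′ untranslated exon of PLCB4 had 13 inclusion, 12 exclusion and 20 shared reads and a level of 0.38 (0.22 to 0.56), beside 34741 reads that fit neither form. At its best covered shared event PLCB1 had 279 reads in LM2 and 16 in parental cells, and at that of PLCB4 there were 1968 and 43, scaled ratios of 21.8 (13.2 to 38.7) and 57.2 (42.3 to 79.3). The 3 other genes within 1 Mb that had a shared event had ratios of 0.799 to 1.32, and none was 2-fold higher or lower. ELMO1, a partner of DOCK proteins in Rac activation, had 45 and 30 reads at exons of 36 and 113 nt, with levels of 0.72 (0.4 to 0.99) and 0.69 (0.3 to 0.96). RAB37, a small GTPase of vesicle transport, had 22 inclusion reads and no other assigned read at its 111-nt exon, with a level of 0.94 (0.82 to 1). COBL, an actin nucleator, had 0 inclusion and 5 exclusion reads at its 45-nt exon and a level of 0.1 (0.01 to 0.38). MCTP2, a membrane protein with C2 domains, had 5 inclusion and 11 exclusion reads and a level of 0.06 (0.02 to 0.13).

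Other LM2 hosts, grouped here by hand, encode nuclear proteins. None of the 57 genes on the list of transcription factors and chromatin, 31 of which had an event with at least 20 assigned reads in LM2, was a host. Over all 9191 genes with such an event in LM2, 0.294% were hosts, so nothing is read from this count. NKX2-1, a homeodomain factor of lung and thyroid, had no event in the parental table. Its exons of 145 and 234 nt had 33 and 22 reads in LM2 and levels of 0.91 (0.71 to 0.99) and 0.82 (0.53 to 0.96), and both events have an exon that overlaps the opposite-strand gene NKX2-1-AS1. SFTA3 and AL132857.1, which lie next to NKX2-1 and whose roles are not described here, overlap on the same strand and share 3 LM2-only events of 27 to 32 reads. Their best covered shared event had 214 reads in LM2 and 6 in parental cells, while 4 other genes within 1 Mb had ratios of 0.589 to 1.05. TLE4, a Groucho-type corepressor, had 6 events with 31 to 40 reads and levels of 0.05 to 0.71. Within TLE4, the 96-nt exon had 0 inclusion and 10 exclusion reads, and the 153-nt exon had 17 inclusion and 0 exclusion reads. ZNF300, a zinc finger protein, had 3 inclusion and 24 exclusion reads and a level of 0.08 (0.03 to 0.17).

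Among enzymes, ALDH3A1, an aldehyde dehydrogenase, had no parental event and had 32 inclusion, 7 exclusion and 32 shared reads at a 167-nt exon in LM2, with a level of 0.67 (0.51 to 0.84). The event of its 100-nt exon, which overlaps an opposite-strand gene, had 34 reads and a level of 0.76 (0.56 to 0.93). FKBP10, a collagen chaperone of the endoplasmic reticulum, had a mostly included exon of 146 nt (0.91, 0.68 to 0.99) and a mostly skipped exon of 183 nt (0.1, 0.02 to 0.21), with no event in parental cells. B4GALNT1, which makes complex gangliosides, had 25 reads, of which 2 were informative. The cancer-testis genes MAGEA2, MAGEA2B and CSAG1 lie together on the X chromosome and had no parental event. Of 9 other genes within 1 Mb with a shared event, 2 were at least 2-fold higher in LM2, with ratios over the 9 of 0.417 to 81.7. The 3 hosts have near-identical copies, so their reads cannot be placed with certainty. All 26 reads at each MAGEA2 and MAGEA2B event fit both forms. At CSAG1, 2 overlapping exons of 216 and 212 nt shared 7 inclusion and 30 exclusion reads and had a level of 0.05 (0.02 to 0.1). The remaining hosts were SPERT with 35 reads, DZIP1 with 23, FAM84A with 106 and the non-coding LINC00632 with 37 and 33. No read at the FAM84A and LINC00632 events was informative.

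In parental cells, the best covered hosts included receptors and regulators of G-protein signalling. RGS4, a GTPase activator that shortens G-protein signals, had 216 inclusion, 0 exclusion and 612 shared reads at its 167-nt exon. Its level was 0.99 (0.97 to 1), and LM2 had no RGS4 event in its table. FPR1, a receptor for formylated peptides, had 202 reads at a 51-nt 5′ untranslated exon, of which 4 were informative, and a level of 0.18 (0.02 to 0.39). Its neighbour FPR2 had 20 reads at each of 2 exons. GABRE, a GABA-A receptor subunit, had 20 inclusion and 0 exclusion reads at a 200-nt exon (0.87, 0.66 to 0.98), and 1 inclusion and 7 exclusion reads at an 83-nt exon (0.07, 0 to 0.2). None of these 4 genes had an event in the LM2 table. TSPOAP1, an adaptor that binds the mitochondrial translocator protein, had 133 inclusion, 0 exclusion and 33 shared reads at an 840-nt coding exon and a level of 0.82 (0.63 to 0.95). RNF180, a membrane ubiquitin ligase, had 278 inclusion and 0 exclusion reads at a 960-nt coding exon (0.99, 0.96 to 1). TSPOAP1 and RNF180 also had no LM2 event.

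SERPINA1, which encodes the protease inhibitor alpha-1 antitrypsin, had 9 events, all parental only and all in the 5′ untranslated region. In 3 of them the same 57 inclusion and 355 shared reads gave levels of 0.91 to 0.93, and in the other 6 a set of 26 reads gave levels of 0.09 to 0.18. These 9 events are therefore nearer to 2 measurements than to 9. ALOX5, the lipoxygenase that starts leukotriene synthesis, had 22 inclusion, 4 exclusion and 64 shared reads and a level of 0.64 (0.45 to 0.82). NLRP2, an inflammasome-related protein, had 120 and 107 reads at exons of 66 and 57 nt with levels of 0.96 and 0.94. TLR8, a receptor for RNA, had 77 reads, of which 1 was informative, and the related TLR10 had 3 events of 23 to 25 reads. None of ALOX5, NLRP2, TLR8 and TLR10 had an event in the LM2 table.

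Of 46 genes of antigen presentation and the interferon response, 31 had an event with at least 20 assigned reads in parental cells, and 3 of these hosted 9 parental-only events. Over all 9790 genes with such an event in parental cells, 1.04% were hosts. In LM2, 22 of the 46 had such an event and none hosted an LM2-only event, while 0.294% of all 9191 such genes were hosts. IFI27, an interferon-induced mitochondrial protein, had 0 inclusion, 28 exclusion and 202 shared reads at a 221-nt exon of a non-coding transcript, with a level of 0.01 (0 to 0.03). Its 30-nt coding exon had 8 inclusion and 0 exclusion reads (0.76, 0.38 to 0.99), and none of its 6 events was listed for LM2. HLA-DMB, a chaperone of peptide loading on class II molecules, had 8 inclusion, 0 exclusion and 51 shared reads at its 117-nt exon, with a level of 0.38 (0.17 to 0.72). Its 36-nt exon had 23 reads and a level of 0.83 (0.55 to 1). XAF1, an interferon-induced antagonist of an apoptosis inhibitor, had 5 parental-only events of 21 to 40 reads. It was still measured in LM2, with 13 reads against 42 in parental cells at the shared 86-nt exon, a scaled ratio of 0.387 (0.19 to 0.734).

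Further parental hosts bind RNA or act in adhesion, grouped here by hand. RBM47, an RNA-binding protein that affects splicing and RNA stability, had 55 inclusion, 6 exclusion and 158 shared reads at its 207-nt coding exon and a level of 0.82 (0.69 to 0.92). A longer 445-nt form of that exon had 40 inclusion and the same 6 exclusion reads and a level of 0.57 (0.42 to 0.74). At the better covered of the 2 shared RBM47 events, LM2 had 3 reads where parental cells had 186, a scaled ratio of 0.0202 (0.00412 to 0.0598). CELF4, another splicing regulator, had 34 reads at an 85-nt 3′ untranslated exon, none of them informative. Of 46 listed splicing regulators, 34 had an event with 20 reads in parental cells, and CELF4 and RBM47 were the only hosts. In LM2, 31 of the 46 had such an event and none was a host. Over all genes with such an event, 1.04% of 9790 were hosts in parental cells and 0.294% of 9191 in LM2. MUC1, a transmembrane mucin, had 12 parental-only events over 6 exons with 20 to 44 reads and levels of 0.42 to 0.95. Both lines list 4 other MUC1 events, which had 1 or 2 reads in LM2 and 20 to 44 in parental cells. ANK3, ankyrin-G, which anchors channels and adhesion molecules to spectrin, had 3 such events. The 309-nt and 336-nt exons of ANK3 had 25 and 24 inclusion reads and levels of 0.87 (0.61 to 1) and 0.82 (0.6 to 0.97), and no read at the printed 51-nt exon was informative. NCAM1, a neural adhesion molecule, had 23 shared reads and no informative read at 2 exons. COL4A5, a chain of basement membrane collagen, had 12 inclusion, 3 exclusion and 137 shared reads and a level of 0.49 (0.27 to 0.77). PCDH18, a protocadherin, had 43 inclusion and 0 exclusion reads at a 2141-nt part-coding exon (0.74, 0.5 to 0.94).

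The parental hosts included 18 genes that were not protein coding. UCA1, a long non-coding RNA described in several cancers, had 10 parental-only events over 8 exons with 26 to 39 reads and levels of 0.19 to 0.85, and none in LM2. Each UCA1 event has an exon that overlaps an opposite-strand gene, and the sources used here do not say whether reads were counted by strand. LINC01085 had 137 reads and a level of 0.54 (0.27 to 0.83). At the low end, hosts included the olfactory receptors OR10G4, OR2T2 and OR56A4 with 26, 32 and 36 reads and the PATE2 and PATE4 genes with 20 and 26. PSG1, PSG11 and AMY2A have near-identical copies, so their parental-only reads are uncertain. Within 1 Mb of PSG1 and PSG11, 8 of 25 other genes with a shared event were at least 2-fold lower in LM2. Hosts within 1 Mb of each other formed 3 clusters in LM2 and 13 in parental cells. In 1 of the LM2 clusters and 9 of the parental clusters, at least 1 other gene nearby was 2-fold higher or lower. Summed over clusters, 2 of 16 other genes near LM2 hosts were higher in LM2 and 0 lower. Near parental hosts, 5 of 249 were higher and 22 lower. Over 10213 genes with at least 20 reads over both lines at the best covered shared event, 3.17% were higher and 8.84% lower. Events in PEG3 and ZIM2, in AC006254.1 and ITIH4, and in AC007744.1 and CCDC85A lie in overlapping genes on 1 strand and cannot be assigned to either. In all, 3 of 47 LM2 events and 19 of 164 parental events had at least 1 of their 3 exons overlap an exon of an opposite-strand gene. Beside UCA1, the parental hosts concerned were ANK3 at all 3 of its events, NCAM1 at its 816-nt exon, CELF4, OBSL1, SELENOP, DDX25 and HTR5A.

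Few informative reads stood behind the inclusion levels, with a median of 13 in LM2 and 5 in parental cells. No informative read was present at 9 of 47 LM2 events (19.1%) and at 36 of 164 parental events (22%), against 3.34% and 3.44% of events with 20 assigned reads that both lines list. The deposited interval was wider than 0.5 at 17 LM2 events (36.2%) and 95 parental events (57.9%), against 9.34% and 8.72% of those shared events. The median share of assigned reads that fit both forms was 71.6% per LM2 event and 87.5% per parental event, and 65% and 66.7% for the shared events. Summed over events, 67.5% of the LM2 reads and 75.1% of the parental reads fit both forms, against 67.5% and 69.5% at shared events. Intervals wider than 0.5 were thus more frequent than among shared events, whose median of assigned reads was 163 in LM2 and 193.5 in parental cells.

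The median level was 0.46 in LM2 and 0.54 in parental cells, beside 0.58 and 0.54 for shared events. In LM2, 8 events had a level of 0.9 or more, 10 had 0.1 or less and 29 lay between. In parental cells, 15 had 0.9 or more, 12 had 0.1 or less and 137 lay between. No exclusion read was present at 29 LM2 events (61.7%) and 131 parental events (79.9%), against 44.3% and 43.4% of shared events. A level that lies between therefore need not rest on any read that shows skipping. Among events with at least 10 informative reads, 8 of 26 in LM2 and 15 of 58 in parental cells had a level of 0.9 or more. Levels of 0.1 or less were found at 8 of the 26 and at 5 of the 58. Every event with a level of 0.9 or more, in either line, had at least 10 informative reads. No level at any of the 211 events can be compared between the lines, since one line has none, and none is in the authors' deposited comparison table.

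**Figure D3:**
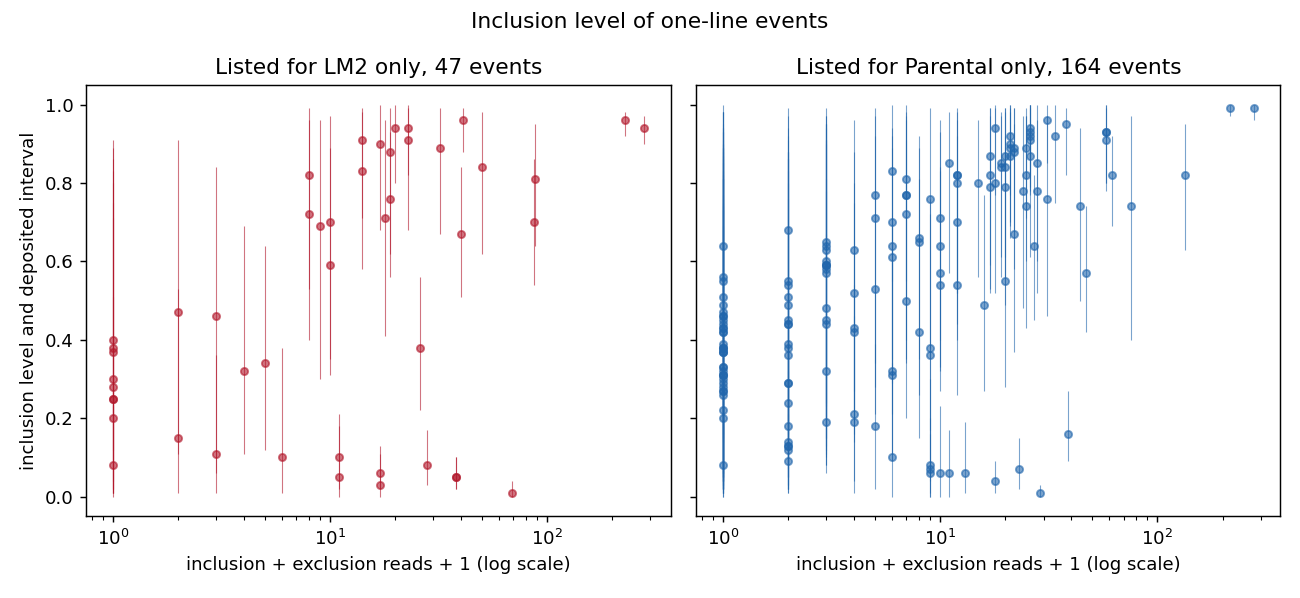
Inclusion level with the deposited interval (y axis) against inclusion plus exclusion reads plus 1 on a log scale (x axis), for the 47 LM2-only events on the left and the 164 parental-only events on the right. Intervals are long at the left edge of each panel, where 9 LM2 events and 36 parental events have no informative read.

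The skipped exons were wholly coding in 27 of 47 LM2 events and 77 of 164 parental events. They were 5′ untranslated in 9 and 25, part coding in 5 and 8, and exons of non-coding transcripts in 6 and 47. A 3′ untranslated exon occurred in 1 parental event, and 6 parental events had no exactly matching annotated exon. The length was divisible by 3 in 57.4% of LM2 events and 46.3% of parental events, beside 40.3% of shared events in each line. Events of 1 gene often share an exon or its reads, so these shares do not count independent exons. Median exon length was 106 nt in LM2 and 131 nt in parental cells, and 115 nt for shared events.

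A further 4 lists of genes were counted. Over all genes with an event of at least 20 assigned reads, 0.294% of 9191 were hosts in LM2 and 1.04% of 9790 in parental cells. The rule used this contrast, and nothing is read from the counts per list. Of 75 genes of adhesion and the cytoskeleton, 47 had an event with at least 20 assigned reads in each line. EPB41L3 was the LM2 host among them, and ANK3 and NCAM1 were the parental hosts. Of 45 guidance receptors and neuronal genes, 20 had such an event in LM2 and 23 in parental cells, and ROBO1 in LM2 was the only host. Of 63 growth factor receptors and signalling genes, 35 had one in each line, and PLCB1 and PLCB4 were LM2 hosts with no parental host. Of 55 genes of metabolism and transport, 30 had one in LM2 and 32 in parental cells, and ALDH3A1 in LM2 was the only host.

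The host gene was usually listed for the other line in LM2 and less often in parental cells. Of the 27 LM2 hosts, 18 had other events in the parental table, and 9 had none, among them ALDH3A1, CSAG1, DZIP1, FKBP10, MAGEA2, MAGEA2B, NKX2-1 and SPERT. Of the 102 parental hosts, 40 had other events in the LM2 table and 62 had none. Counted over events, 32 of 47 (68.1%) LM2 events and 64 of 164 (39%) parental events lay in such genes, against 92.8% and 92.5% of shared events. Even so, the other line had few reads there. Over the hosts listed there, the best covered event in the other line had a median of 5.5 assigned reads for both sets, and it reached 20 reads for 3 LM2 hosts and 5 parental hosts.

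Assigned reads at the best covered event listed for both lines were set side by side for each host, scaled by the ratio of all assigned reads at shared events, which was 0.8. This is the contrast that chose the events, so the counts are a description. The background was the 10213 genes for which this event had at least 20 reads over both lines together. Of these, 3.17% were at least 2-fold higher in LM2 with a 95% interval that excluded 1, and 8.84% were at least 2-fold lower. The host counts carry no such read minimum, so the 2 sets of genes differ in this. All 18 LM2 hosts with a shared event were higher by the 2-fold rule. Of 39 parental hosts with a shared event, 22 were lower in LM2, 0 were higher and 17 were neither. A host in neither class was not shown to be similar in the lines, since several had few reads. LINC01088 had 3 reads in LM2 and 2 in parental cells, and CLIC2 had 2 and 4. The intervals of all these ratios cover counting error in 1 table per line and no difference between replicates.

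**Figure D4:**
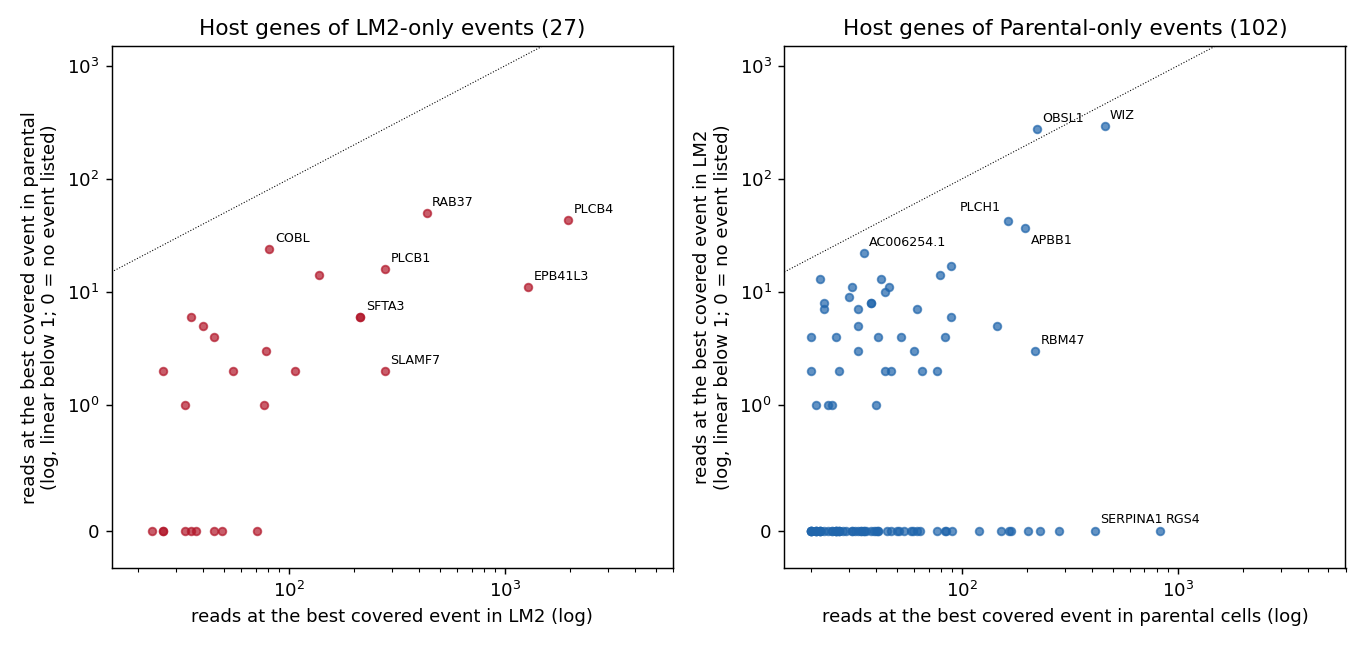
Assigned reads at the best covered event of each host gene in the line that lists the one-line event (x axis, log scale) and in the other line (y axis, log scale, linear below 1; 0 marks no listed event), LM2 hosts left and parental hosts right. All 27 LM2 hosts lie below the dotted line of equal reads, and OBSL1 among the parental hosts lies above it.

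The hosts that were well covered in both lines are those where the gene was read and the event was not listed. RAB37 had 434 reads in LM2 and 50 in parental cells at a shared 77-nt exon, and COBL had 81 and 24 at a shared 264-nt exon. PLCB4 had 1968 and 43 at a shared 37-nt exon. RAB37, COBL and PLCB4 were higher in LM2, with scaled ratios of 10.8 (8.08 to 14.8), 4.22 (2.65 to 6.96) and 57.2 (42.3 to 79.3). For parental hosts, OBSL1, a cytoskeletal adaptor, had 277 reads in LM2 and 223 in parental cells at a shared 472-nt exon. It had 9 inclusion and 0 exclusion reads at its parental-only 276-nt exon (0.64, 0.33 to 0.93). WIZ, a zinc finger partner of histone methyltransferases, had 294 reads in LM2 and 458 in parental cells at a shared 399-nt exon, and 21 inclusion and 0 exclusion reads at its parental-only 2138-nt exon (0.67, 0.37 to 0.95). The scaled gene ratios of OBSL1 and WIZ were 1.55 (1.3 to 1.86) and 0.802 (0.69 to 0.931). APBB1, an adaptor of the amyloid precursor protein, had 37 reads in LM2 and 196 in parental cells at its best covered shared event, and its 2 parental-only events had no informative read. PLCH1, a phospholipase of the eta class, had 42 reads in LM2 and 163 in parental cells at its best covered shared event, and 9 inclusion and 2 exclusion reads at its parental-only 60-nt exon (0.7, 0.44 to 0.92). Of these 4 parental hosts, OBSL1 and WIZ had reads at the best covered shared event within 2-fold between the lines, and APBB1 and PLCH1 were lower in LM2. AC006254.1, which overlaps ITIH4, had 22 reads in LM2 and 35 in parental cells. DMD, which encodes dystrophin, was the parental host with events in both tables and none in common. It had 30 reads at a 32-nt exon in parental cells, and 2 other DMD events had 9 and 2 reads in LM2.

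**Figure D5:**
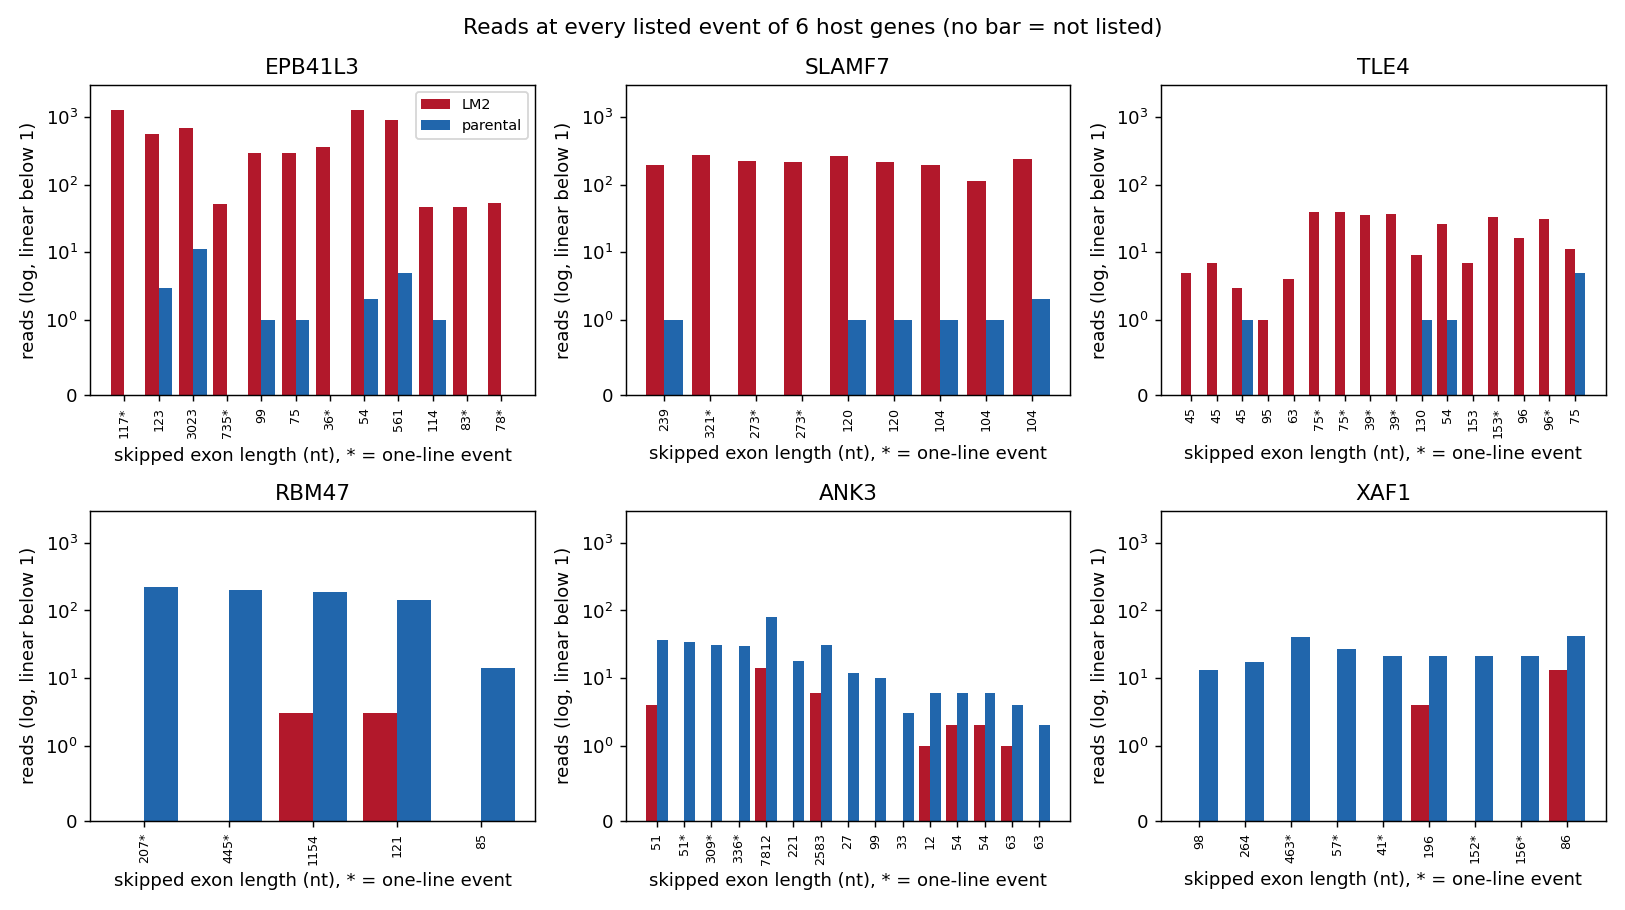
Assigned reads at every listed event of 6 host genes (y axis, log scale, linear below 1), LM2 left of parental in each pair, in order along the chromosome and named by the length of the skipped exon, with one-line events starred. EPB41L3, SLAMF7 and TLE4 have at most 11 reads at any parental event, and RBM47, ANK3 and XAF1 have at most 14 at any LM2 event.

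The same skipped exon was listed for the other line with other neighbouring exons in few cases, 4 of 47 (8.51%) LM2 events and 4 of 164 (2.44%) parental events, against 26.1% and 26% of shared events. The LM2 cases were RAB37, PLCB4 and a pair of overlapping exons in SFTA3 and AL132857.1. The 111-nt RAB37 exon had a level of 0.94 (0.82 to 1) in its LM2-only event. In its event listed for both lines, the level was 0.89 (0.72 to 0.99) from 51 reads in LM2. Parental cells had 0.59 (0.12 to 0.93) there, from 5 reads. The 56-nt PLCB4 exon had 0.38 (0.22 to 0.56) in its LM2-only event. In its event listed for both lines, LM2 had 0.14 (0.07 to 0.25) from 169 reads. Parental cells had 0.54 (0.02 to 0.99) there, from 1 read. The parental cases were LINC01085, ANK3, CAPS2 and GALNT14. The 51-nt ANK3 exon had 0.26 (0.04 to 0.68) in its parental-only event. In its event listed for both lines, parental cells had 0.18 (0.01 to 0.52) from 37 reads. LM2 had 0.29 (0.04 to 0.75) there, from 4 reads. The 182-nt LINC01085 exon had 0.57 (0.17 to 0.95) from 5 reads in LM2. In its parental-only event, which has other neighbours, it had 0.54 (0.27 to 0.83) from 137 reads. For each of these exons the deposited intervals of the lines overlap. With 1 to 5 reads in the other line, its intervals are so wide that this overlap does not show that the levels agree.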

How the data were processed

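Total RNA from 2 samples per line was made into ScriptSeq v2 libraries, per the labels' protocols. Alignment used STAR 2.7 and hg38, per the submitters' processing notes, and skipped-exon events come from MISO, per the file headers. Not given in the sources used here are the version and settings of MISO, the annotation of events, strand handling and whether replicates were pooled. The deposited inclusion level is a fraction, a posterior mean with an interval whose coverage is not stated. Reads per class are raw read counts that the authors deposited for each event. The difference in the authors' deposited comparison table is a score, the LM2 level minus the parental level, and none of the described events is in it.

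Events were matched by name, and an event entered with at least 20 assigned reads. Members and gene lists were chosen with earlier results of these data known. A host gene was a GENCODE release 29 gene on the same strand that holds the skipped exon. Genes were named by reads: per line, the 8 best covered, 5 whose gene the other table lacks, 5 with most informative reads at levels of 0.1 to 0.9, 3 whose exon the other table lists, and up to 3 per gene list; others were added after their values were seen, to account for every group of hosts. The events of 1 host gene are counted but not reported here. The lists on extracellular matrix and proteases, transcription factors and chromatin, the lung metastasis signature and markers of other cell types held no host gene.

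Ratios were LM2 over parental cells, with exact Clopper-Pearson 95% intervals that cover counting error only, and the calculation was tested on simulated data. The median log2 ratio over genes was -0.12. Python 3.11.15 with pandas 2.3.3, numpy 2.4.6 and scipy 1.17.1 was used. With 1 table per line and no replicate values, no p-value was computed.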

Additional observations from a re-analysis of the deposited data

How the results depend on the processing

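No paired analysis was possible because each deposited table names no replicate, and for the same reason no replicate could be left out. Requiring 50 assigned reads left 11 LM2 events and 36 parental events, and requiring 20 informative reads left 15 and 36. At 10 assigned reads there were 457 parental events and, within 1.5 times the reported number, 70 LM2 events. The share of events with a level of 0.5 or more was 46.8% in LM2 and 54.3% in parental cells; from inclusion and exclusion reads alone it was 68.4% in LM2 and 82.8% in parental cells, and at 50 reads 63.6% in LM2. At 50 reads the host gene had another event in the other table for 90.9% of LM2 events and 27.8% of parental events, and the same exon was listed there for 0% of LM2 events. The causes were not tested. The other 17 alternatives, among them counting each exon once and, chosen after seeing the data, requiring 40 reads in all classes, stayed within 1.5 times the reported count or within the 95% binomial interval of the reported share. Reads that tell inclusion from exclusion limit every level given here, and tables without replicates limit every comparison.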
